A study of Mus musculus with 13 samples.

Results

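The chromatin of 10 genes that encode surface, matrix and marker proteins of oligodendrocyte progenitor cells (OPCs) was described in ATAC-seq peak lists. OPCs are the dividing glial precursors from which myelinating oligodendrocytes form, and ATAC-seq marks open chromatin through insertion of the Tn5 transposase. No measured value was used to pick the genes, although earlier results of these data were known. They were taken as a list: Cspg4, Cspg5, Vcan, Bcan, Ptprz1, Tnr, Matn4, Gpr17, Lhfpl3 and Neu4. They are 10 of 21951 protein-coding genes in the GENCODE M21 annotation of the mouse genome (mm10), and all 10 were found in it.

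The 13 libraries came from cultured OPCs of P5-P7 mice, and each is named by its region, its genotype and its culture number. There were 3 control brainstem cultures (51, 59 and 61), 3 K27M brainstem cultures (41, 59 and 61), 3 control telencephalon cultures (51, 59 and 61) and 4 K27M telencephalon cultures (41, 51, 59 and 61). K27M cells carry a conditional H3.3 K27M knock-in at H3-3a, switched on by a human GFAP promoter Cre that acts in neural stem and progenitor cells and so marks all of their progeny. Control cells came from littermates without Cre, on the same FVB background. Tissue of several pups was pooled by region and genotype, cells that bind a lectin-coated dish (microglia and endothelium) were removed, and OPCs were caught on an antibody to PDGFRα. All cultures were held in proliferation medium with PDGF, NT-3, CNTF and forskolin, so no differentiated stage was sampled. The region and genotype comparisons ask whether these OPC genes differ in accessibility between cells of different origin or after expression of the mutant histone.

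Many of these proteins belong to the chondroitin sulfate matrix that surrounds neural cells. Lecticans such as versican (Vcan) and brevican (Bcan) bind hyaluronan, link proteins of the Hapln family hold that bond, and tenascin-R (Tnr) and matrilins bridge the proteoglycans to one another. OPCs display further proteoglycans at their surface, among them the product of Cspg4, known as NG2, which is the classical marker of the cell type together with PDGFRα. The remaining genes, such as Gpr17, mark particular stages of the lineage.

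Each list gives, for every called peak, the fold enrichment of ATAC-seq signal over the local background of the same library, averaged over the peak. This fold is used below as deposited, and beside it the percentile, the share of peaks in the same list with an equal or lower fold. Every annotated transcription start was given a promoter window of 2 kb before and 1 kb after it, the gene body was the remainder of the gene, and the flanks reached 50 kb past either end. The lists held 16879 to 52466 peaks and carry no read counts, so sequencing depth is unknown and a missing peak means only that none was called. Control telencephalon culture 59 had the shortest list by a wide margin. In all libraries the promoters of the 5 OPC markers Pdgfra, Olig1, Olig2, Sox10 and Nkx2-2 had a peak. Of 5 genes each, promoter peaks were called per library for 0 to 3 of the mature oligodendrocyte markers, 2 to 5 of the astrocyte markers, 0 to 3 of the microglial markers, 1 to 3 of the endothelial markers, 1 to 3 of the pericyte markers and 3 to 5 of the neuronal markers. Gfap and Gja1 of the astrocyte list and Syt1 and Snap25 of the neuronal list had a promoter peak in all 13 libraries, at mean percentiles of 63.6, 49.3, 92.3 and 77.5, against a median of 35.5 for the OPC markers. Mbp, P2ry12 and Kcnj8 had one in 12 libraries, and Flt1 and Kdr in 11 and 10. Mog, Mag, Cx3cr1, Csf1r, Tek and Pdgfrb had none in any library, and no astrocyte or neuronal marker was without one throughout. A promoter can be open in cells that do not express the gene, and the part of other cells in the results was not tested.

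Sequences of 300 bases are shown for the sites on which the description turns. The first pair contrasts the weakly called start of Cspg4 with the site in its first intron that was called everywhere. It is followed by the start of Tnr, which had the highest mean percentile among the promoters of the listed genes. The strongest distal sites at Cspg5, Ptprz1 and Lhfpl3 come last. Promoter sequences, from 250 bases before to 50 after the RefSeq start, come from RefSeq on GRCm38.p6, the assembly of mm10, and the distal sites were read from the same genome around the median midpoint of the called peaks. That genome is of the C57BL/6J strain, not FVB. Capitals mark matches on either strand to the SOX core (AAC, ATC, TAC or TTC followed by AAAG or AATG), the E-boxes CATATG and CAGCTG, the NFI motif TTGGCA, the AP-1 motif TGANTCA, the GC box GGGCGG or the TATA box TATAAA. All are written 5′ to 3′ on the plus strand.
Cspg4 start, chr9:56864854-56865153: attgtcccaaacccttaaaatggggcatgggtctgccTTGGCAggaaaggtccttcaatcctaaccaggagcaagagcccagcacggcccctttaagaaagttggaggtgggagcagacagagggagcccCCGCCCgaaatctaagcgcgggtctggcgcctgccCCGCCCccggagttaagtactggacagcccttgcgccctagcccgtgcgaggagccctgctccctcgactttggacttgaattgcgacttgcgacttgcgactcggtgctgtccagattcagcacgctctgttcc
Cspg4 first intron, chr9:56868220-56868519: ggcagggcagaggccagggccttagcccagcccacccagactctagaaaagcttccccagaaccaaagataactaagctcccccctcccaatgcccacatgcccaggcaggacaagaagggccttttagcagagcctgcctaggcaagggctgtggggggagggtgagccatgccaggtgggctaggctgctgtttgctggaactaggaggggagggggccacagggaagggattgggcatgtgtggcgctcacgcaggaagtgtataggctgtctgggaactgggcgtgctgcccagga
Tnr start, chr1:159523519-159523818: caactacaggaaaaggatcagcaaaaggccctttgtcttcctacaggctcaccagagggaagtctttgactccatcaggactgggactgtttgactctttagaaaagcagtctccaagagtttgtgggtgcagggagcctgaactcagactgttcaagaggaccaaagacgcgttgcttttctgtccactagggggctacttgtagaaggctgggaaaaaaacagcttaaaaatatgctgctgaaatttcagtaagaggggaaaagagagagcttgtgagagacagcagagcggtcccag
Cspg5 upstream, chr9:110205864-110206163: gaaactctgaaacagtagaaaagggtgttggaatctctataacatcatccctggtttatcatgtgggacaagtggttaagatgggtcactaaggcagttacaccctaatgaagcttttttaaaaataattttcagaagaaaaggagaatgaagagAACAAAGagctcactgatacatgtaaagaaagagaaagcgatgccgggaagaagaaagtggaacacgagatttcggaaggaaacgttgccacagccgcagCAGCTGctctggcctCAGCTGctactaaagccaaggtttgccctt
Ptprz1 upstream, chr6:22834174-22834473: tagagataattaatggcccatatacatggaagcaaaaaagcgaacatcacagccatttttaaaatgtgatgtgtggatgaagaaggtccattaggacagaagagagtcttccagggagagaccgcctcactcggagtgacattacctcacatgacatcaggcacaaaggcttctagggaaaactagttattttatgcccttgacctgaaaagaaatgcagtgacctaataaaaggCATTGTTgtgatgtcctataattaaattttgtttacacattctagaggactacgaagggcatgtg
Lhfpl3 second intron, chr5:23197204-23197503: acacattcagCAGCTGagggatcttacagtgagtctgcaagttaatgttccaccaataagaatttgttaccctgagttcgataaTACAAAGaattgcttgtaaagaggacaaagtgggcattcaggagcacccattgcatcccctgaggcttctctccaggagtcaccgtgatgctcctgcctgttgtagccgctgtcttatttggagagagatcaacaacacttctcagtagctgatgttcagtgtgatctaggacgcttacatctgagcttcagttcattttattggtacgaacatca

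The Cspg4 start held 2 GC boxes and 1 NFI motif, while its intronic site and the Tnr start held none of the motifs. One SOX core lay in each of the Cspg5, Ptprz1 and Lhfpl3 sites, with 2 CAGCTG E-boxes at Cspg5 and 1 at Lhfpl3. Over the RefSeq promoters, 9 sequences of 8 of the genes could be read (Matn4 has a pair), and 6 of the 9 (66.7%) held a GC box against 35.7% of all 32851 promoters. None of the 9 held a SOX core, an AP-1 motif or a TATA box, against 24.6%, 7.81% and 13.6% of all promoters. The 17 peaks at these loci that were found in all libraries and touched no promoter held a SOX core in 8 cases (47.1%) against 41.8% of 3980 such sites in the genome, and a CAGCTG E-box in 6 cases (35.3%) against 32.3%.

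Promoter peaks were found for all 10 genes, but at very different strengths. Vcan, Ptprz1, Tnr, Matn4, Gpr17 and Lhfpl3 had one in all 13 libraries, as did 42% of protein-coding genes. Cspg5, Bcan and Neu4 had one in 12 libraries and lacked it in control telencephalon culture 59 alone, so that 9 of the 10 genes were complete when that short list was left out. The share of protein-coding genes complete over those 12 libraries is not given here. Cspg4 had one in 3 libraries. No member was without a promoter peak throughout, whereas 30.6% of protein-coding genes were. When each library was cut to its 16879 most significant peaks, Cspg4 lost all of its promoter calls, and Cspg5 kept 4, Bcan 8 and Neu4 9. The other 6 genes kept all 13, and the share of all genes that did so is not given.

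**Figure D1:**
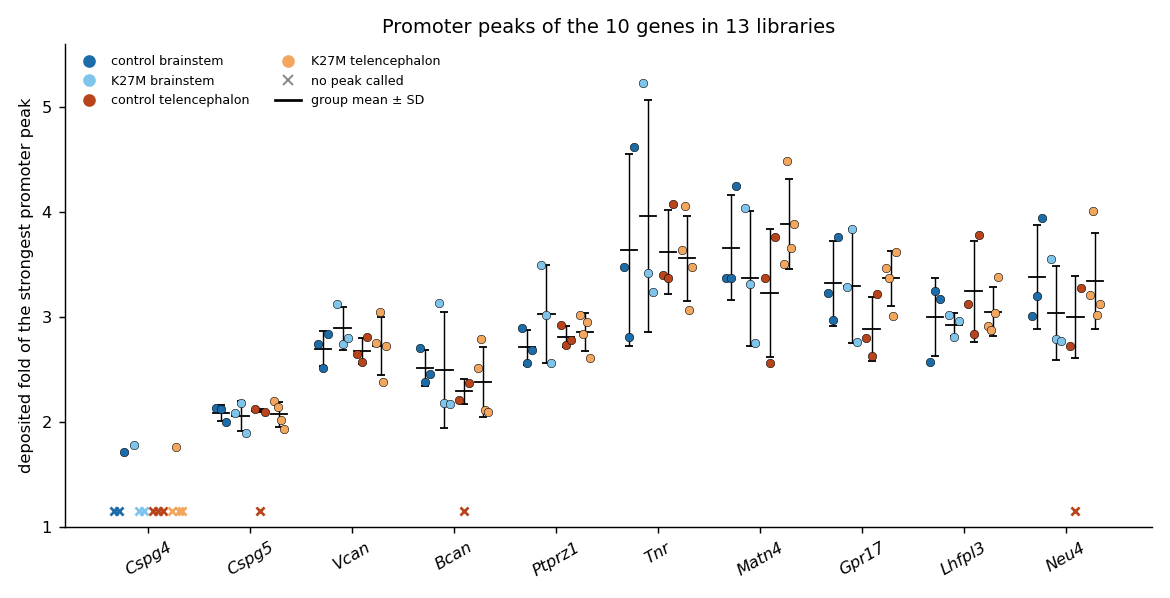
Deposited fold (y axis) of the strongest promoter peak of each gene (x axis) in each of the 13 libraries, one point per library coloured by group, with the group mean ± SD in black and crosses for libraries without a called peak. Regions and genotypes overlap for each of the 9 genes called in 12 or 13 libraries, Tnr and Matn4 lie highest, and Cspg4 has points in 3 libraries only.

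Among the proteoglycans, Cspg4 (chromosome 9, 56865033 to 56899870, plus strand, 3 annotated starts) had the weakest start. Its promoter fold was 1.72 in control brainstem culture 61, 1.79 in K27M brainstem culture 41 and 1.77 in K27M telencephalon culture 51, and no peak was called in the other 10 libraries. These 3 libraries had the longest lists, with 48487 to 52466 peaks, and the calls lay at percentile 0.0629 to 0.115, near the floor of their lists. The peak can also be assigned to the neighbouring gene Odf3l1, whose promoter it touches.

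The strongest peak inside Cspg4 lay 3.3 kb from the start, in intron 1 and just outside the promoter window. In control brainstem its fold was 3.40, 2.90 and 3.54 in cultures 51, 59 and 61, and in K27M brainstem 3.79, 3.35 and 3.78 in cultures 41, 59 and 61. In control telencephalon it was 2.68, 2.90 and 3.57 in cultures 51, 59 and 61, and in K27M telencephalon 3.73, 3.92, 3.17 and 3.00 in cultures 41, 51, 59 and 61. All 4 groups overlapped, and every one of the 13 libraries had a peak in the body of Cspg4 and none had a stronger one at its start. The strongest flank peak, 72.6 kb from the start with a fold of 3.39 ± 0.38 (SD, n = 13), touches the promoter of Imp3. Intron 1 held a pair of further peaks called in all libraries, 12.1 kb from the start with a fold of 2.33 ± 0.22 (SD, n = 13) and 16.4 kb from it with 2.99 ± 0.35 (SD, n = 13). With 3 shared body peaks, Cspg4 stood among the 0.984% of protein-coding genes with at least as many, where 8.49% had any. Gene length was not allowed for in that count.

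**Figure D2:**
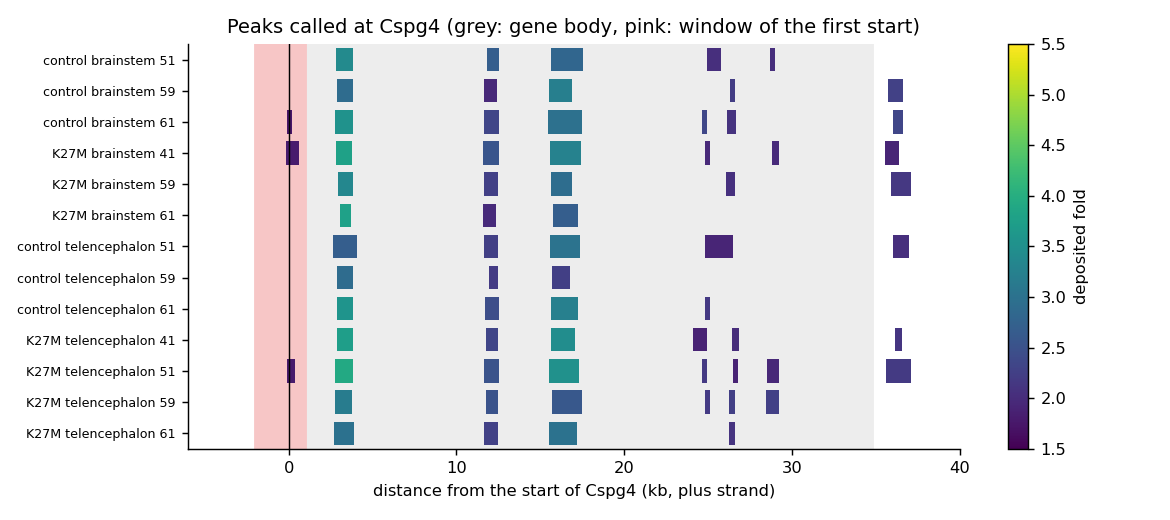
Peaks called at Cspg4 in each library (rows) by distance from its start in kb (x axis), coloured by deposited fold, with the gene body in grey and the window of the first start in pink. The columns at 3.3, 12.1 and 16.4 kb are filled in all 13 libraries, and the pink window holds a peak in 3.

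Cspg5, which encodes the transmembrane proteoglycan neuroglycan C (chromosome 9, 110243783 to 110262576, plus strand), showed a similar arrangement. Its promoter fold was 2.08 ± 0.10 (SD, n = 12), at percentiles of 0.184 to 2.38, and in 11 of them the strongest peak covered an annotated start, in no case the first one. The body peak 11.9 kb inside the gene reached 3.44 ± 0.30 (SD, n = 12) and touched the promoter of the predicted gene Gm43622. Another body peak at 6.3 kb, in intron 2, was called in all libraries at 2.87 ± 0.38 (SD, n = 13). No library had a stronger promoter than body peak. The strongest peak of the locus lay 37.8 kb upstream at a mean percentile of 96.3 and a fold of 4.54 ± 0.47 (SD, n = 13), but it is centred on an annotated exon of Smarcc1, a subunit gene of the SWI/SNF chromatin remodeller, and cannot be assigned to Cspg5 by position.

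The lecticans had modest promoter peaks beside strong flanks. Vcan (chromosome 13, 89655312 to 89742509, minus strand) had a promoter fold of 2.38 to 3.13 (median 2.75) in 13 libraries. Its percentile averaged 35.2 ± 17.7 (SD, n = 13), and 6.49% of the protein-coding genes with a promoter peak throughout lay lower. The peak was broad, with a median width of 3394 bp. The strongest flank peak of Vcan, 135 kb from its start and beyond its 3′ end, had a fold of 3.94 ± 0.63 (SD, n = 13) and lies in an intron of Hapln1, the neighbouring link protein gene.

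Bcan (chromosome 3, 87987531 to 88000230, minus strand) had a promoter fold of 2.43 ± 0.32 (SD, n = 12), with its highest value of 3.13 in K27M brainstem culture 41. In 7 of them the strongest peak in the promoter window lay about 2.3 kb upstream of the gene and covered no start. In the other 5 it covered the start itself, and the upstream peak, called in all 12 libraries, lay outside the window there. In K27M telencephalon the upstream peak had a fold of at least 2.46, above the start value of 2.12 in culture 59 and the lower one in culture 61. The percentile of the Bcan promoter spread from 0.612 to 61.7, in part through this window edge. Peaks called in all 13 libraries in its flanks coincided with the promoters of other genes, at 27.6 kb with Nes, at 22.9 kb upstream with Hapln2, another link protein gene, and at 42.9 kb upstream with Gpatch4, where the fold was 4.12 ± 0.42 (SD, n = 13).

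Ptprz1 encodes a receptor tyrosine phosphatase that carries chondroitin sulfate and whose secreted ectodomain is phosphacan (chromosome 6, 22875502 to 23052916, plus strand). Its promoter fold was 2.56 to 3.49 (median 2.84) and the peak covered the start in all 13 libraries. An intron 1 peak at 34.0 kb had a fold of 3.26 ± 0.46 (SD, n = 13), and in 11 of 13 libraries the strongest body peak exceeded the promoter. The strongest site lay 41.2 kb upstream, touched no annotated gene or promoter, and reached 4.52 ± 0.74 (SD, n = 13) at a mean percentile of 94.8.

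Tnr and Matn4, the matrix bridging genes, had the highest promoter values of the list. For Tnr (chromosome 1, 159523769 to 159931729, plus strand) the promoter fold ran from 2.82 in control brainstem culture 59 to 5.23 in K27M brainstem culture 41, with a median of 3.47. Its mean percentile of 77.5 was above that of 53.9% of protein-coding genes with a promoter peak throughout, so it stands near the middle of such genes. The body of Tnr held 42 merged peaks, of which 6 were called in all libraries, and 0.0911% of protein-coding genes had at least as many. Tnr spans 407961 bp, and gene length was not allowed for in that share. The strongest, 237 kb from the start in intron 2, had a fold of 4.10 ± 0.41 (SD, n = 13). The other 5 lay at 70.8, 90.8, 140, 147 and 218 kb, with mean folds of 2.85 to 3.99. Of these, the peaks at 70.8 and 90.8 kb touch promoters of the predicted genes Gm37731 and Gm10530.

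Matn4 encodes matrilin-4 (chromosome 2, 164389393 to 164405160, minus strand). Its promoter fold was 2.56 to 4.48 (median 3.50) in 13 libraries, yet the peak is centred 1.7 kb inside the gene, in intron 1, and covered an annotated start of Matn4 in only 2 libraries. It also touches the promoter of Rbpjl, a gene that overlaps it, and within 500 bp of a Matn4 start a peak was called in 3 libraries. The fold of Matn4 was 3.37, 3.37 and 4.24 in control brainstem cultures 51, 59 and 61 and 4.04, 3.32 and 2.75 in K27M brainstem cultures 41, 59 and 61. It was 3.37, 2.56 and 3.76 in control telencephalon cultures 51, 59 and 61 and 3.50, 4.48, 3.66 and 3.89 in K27M telencephalon cultures 41, 51, 59 and 61. The lowest and highest values were thus both in telencephalon. The peak at the 3′ end of Matn4, with a fold of 3.11 ± 0.50 (SD, n = 13), touches the promoter of Slpi, and a flank peak 37.9 kb upstream, called in 12 libraries, lies at the start of Sdc4, a syndecan gene.

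Of the lineage and surface markers, Gpr17 encodes a G protein-coupled receptor of committed progenitors (chromosome 18, 31942997 to 31949636, minus strand) and lies within an intron of Lims2. Its promoter fold was 2.63 to 3.84 (median 3.23), and among the 10 genes it alone had a promoter peak with a p-value of 1e-10 or less in all 13 libraries. Inside the gene a peak was called in 3 libraries, and no library had one stronger than the promoter. The strongest flank peak, 38.7 kb from the start, was called in all 13 libraries. Its fold was 3.29 to 4.08 (median 3.68) in brainstem and 2.58 to 5.26 (median 3.36) in telencephalon.

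Lhfpl3, a tetraspan membrane protein gene (chromosome 5, 22746059 to 23275597, plus strand), had a promoter fold of 2.58 to 3.78 (median 3.02), and its peak also touches the promoter of A930003O13Rik. Its body held 61 merged peaks, 4 of them called in all libraries, and 0.387% of protein-coding genes had at least as many. The gene spans 529539 bp, and length was not allowed for here either. In every library a body peak exceeded the promoter. The strongest, 451 kb from the start in intron 2, reached 4.36 ± 0.54 (SD, n = 13) at a mean percentile of 94.5, and another 94.0 kb from the start in intron 1 reached 3.97 ± 0.49 (SD, n = 13).

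Neu4 encodes a sialidase (chromosome 1, 94020451 to 94028334, plus strand), and its promoter fold was 2.72 to 4.01 over 12 libraries (median 3.16). No peak was called elsewhere in its body. A flank peak 14.9 kb from the start and past the 3′ end had a fold of 4.03 ± 0.56 (SD, n = 13) and touched no promoter.

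**Figure D3:**
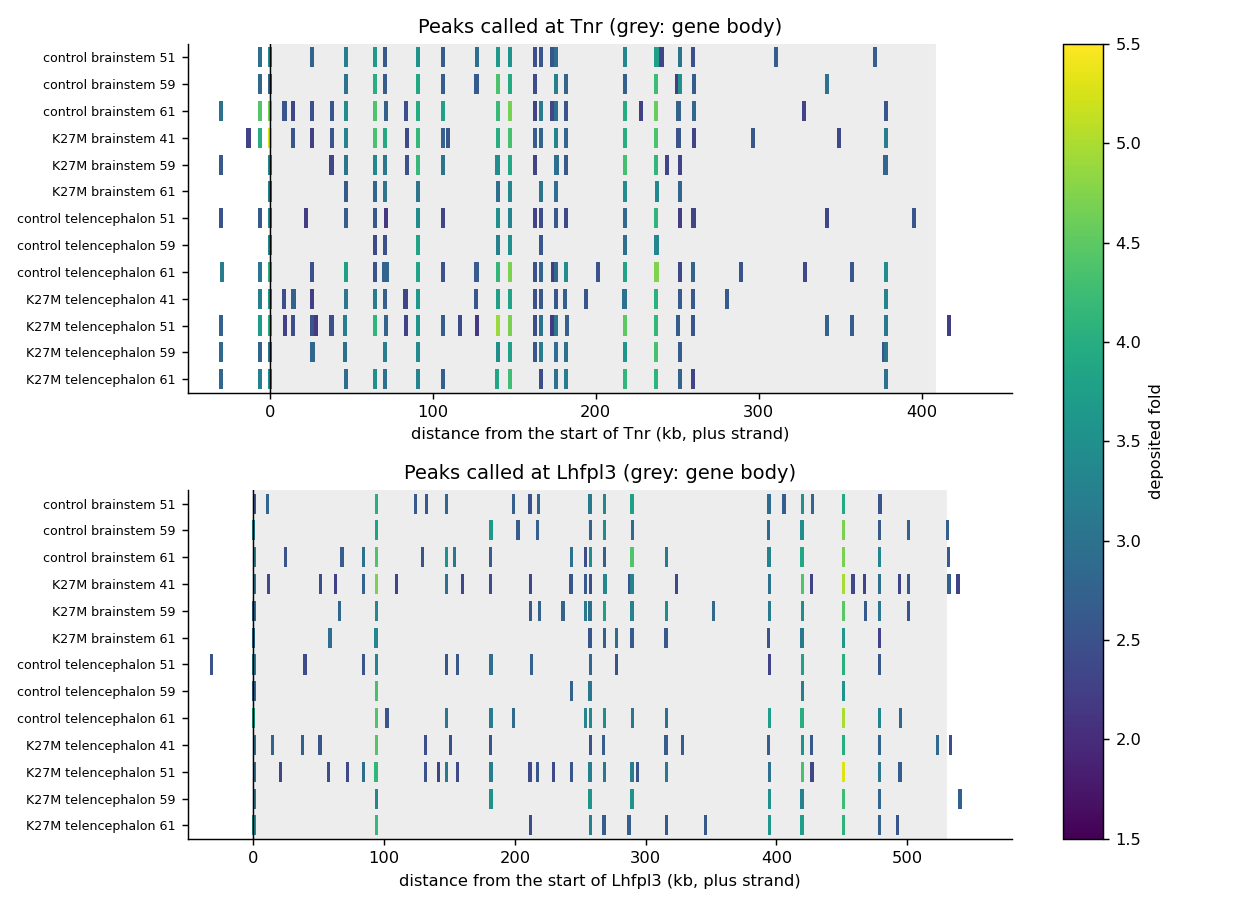
Peaks called at Tnr (top) and Lhfpl3 (bottom) in each library (rows) by distance from the gene start in kb (x axis), coloured by deposited fold, with the gene body in grey and every peak drawn at least 2.5 kb wide. Columns filled in all 13 rows include 237 kb at Tnr and 451 kb at Lhfpl3, and most other columns are filled in some rows only.

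Counted over the 10 loci, 241 merged peaks were found, of which 33 were called in all libraries, against 13075 of all 99746 merged peaks. At the loci 107 were called in a single library, and the number over all merged peaks is not given. At equal list length 25 of the 33 were called in all libraries, and the number over all 13075 is not given. Of the 27 shared peaks outside member promoters, 10 touched the promoter of another gene and 17 did not. Thus 17 of all 33 shared peaks at the loci touched no promoter, and over the genome 3980 of the 13075 shared peaks did not. A library held 40 to 124 of the merged peaks, or 2.08 to 2.78 for every 1000 peaks in its list, so the number called at these loci followed list length. Tnr and Lhfpl3, the longest genes, held the most.

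**Figure D4:**
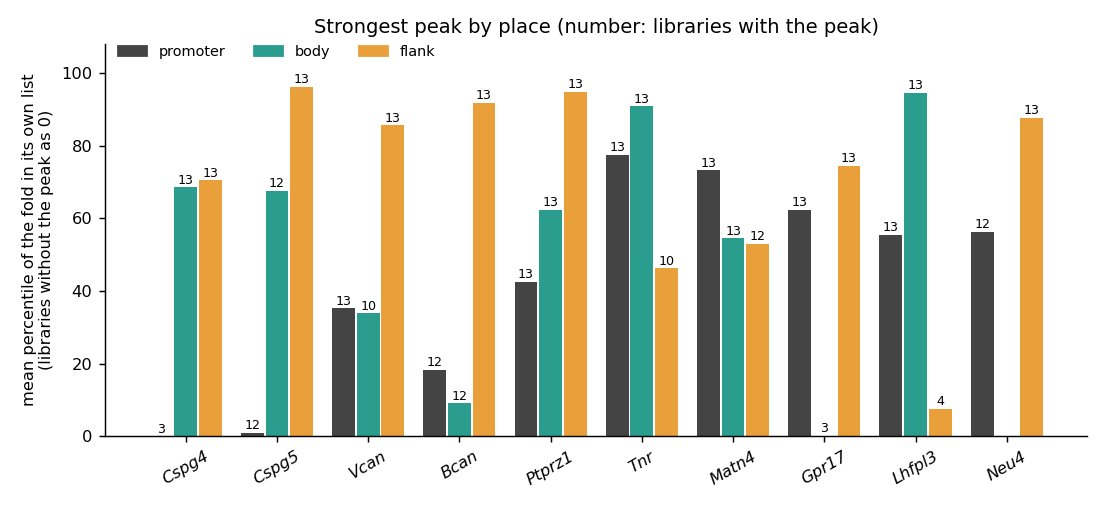
Mean percentile of the fold (y axis, libraries without the peak entered as 0) for the strongest promoter, body and flank peak of each gene (x axis), with the number of libraries that had it above each bar. The body peak leads at Tnr and Lhfpl3, the promoter at Matn4 and a flank peak at the other genes, and several flank peaks belong to promoters or introns of neighbouring genes.

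The comparison of brainstem with telencephalon found no member promoter that passed the test. The fold was compared on the log2 scale, after each library was centred on its median, with limma over the 11483 genes that had a promoter peak in all libraries, and 6 members were among them. No member passed the threshold of 0.05 after Benjamini-Hochberg adjustment, against 0.0174% of all tested promoters. One of the 6, Lhfpl3, had an unadjusted p under 0.05, against 5.14% of all. For Lhfpl3 the promoter fold was 2.58, 3.25 and 3.17 in control brainstem cultures 51, 59 and 61 and 3.02, 2.81 and 2.96 in K27M brainstem cultures 41, 59 and 61. It was 3.12, 2.84 and 3.78 in control telencephalon cultures 51, 59 and 61 and 2.91, 2.88, 3.04 and 3.38 in K27M telencephalon cultures 41, 51, 59 and 61. The regions overlapped. The log2 difference of brainstem from telencephalon was -0.18 ± 0.08 (SE), with a 95% interval from -0.34 to -0.03 (limma, adjusted p = 0.886).

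The other promoters had similar ranges in both regions. The Tnr fold was 2.82 to 5.23 (median 3.45) in the 6 brainstem libraries and 3.07 to 4.08 (median 3.48) in the 7 telencephalon libraries. The Matn4 fold was 2.75 to 4.24 (median 3.37) in brainstem and 2.56 to 4.48 (median 3.66) in telencephalon. For Gpr17 it was 2.76 to 3.84 (median 3.25) in brainstem and 2.63 to 3.62 (median 3.22) in telencephalon. Brainstem reached higher than telencephalon for Tnr and Gpr17 and less high for Matn4, with overlap throughout.

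For Vcan, Ptprz1, Tnr, Matn4 and Gpr17 the log2 differences between regions lay between -0.09 and -0.00, with 95% intervals that together ran from -0.23 to 0.15. All 6 members were lower in brainstem, with a median of -0.05 against -0.01 over all promoters, but Vcan, Ptprz1, Tnr and Gpr17 turned to the opposite sign when libraries were not centred. The centre of the libraries was itself 0.08 higher on the log2 scale in brainstem. Cspg5, Bcan and Neu4, fitted over 12 libraries without the value missing from control telencephalon culture 59, differed by -0.06, 0.09 and -0.01 (limma, adjusted p = 0.997, 0.997 and 0.998). The Bcan difference mixes values of its start and its upstream peak, as set by the window edge.

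The comparison of K27M with control likewise called no member promoter, as for 0% of all promoters, and none of the 6 had an unadjusted p under 0.05, against 4.37%. At an unadjusted p under 0.05 limma had 502 of the 11483 promoters, 0 after adjustment. The largest difference was that of Lhfpl3, with a log2 difference of -0.11 ± 0.08 (SE) and a 95% interval from -0.28 to 0.06 (limma, adjusted p = 0.999). Over the 6 genes the intervals ran from -0.28 to 0.23, and 4 of 6 were higher in K27M with a median of 0.01 against -0.00 over all promoters.

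**Figure D5:**
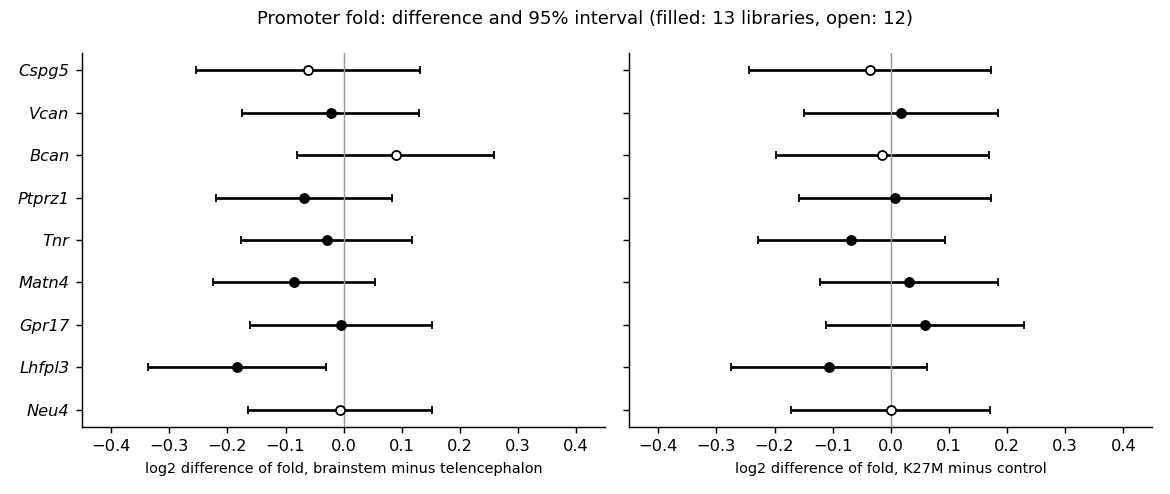
Log2 difference of promoter fold (x axis) between regions (left) and genotypes (right) for 9 genes (y axis), as limma estimates with 95% intervals, filled for genes with a peak in 13 libraries and open for 12. All intervals but that of Lhfpl3 between regions include 0, and none passed after adjustment.

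For promoters the picture within one genotype or one region was the same. Between regions 0% of promoters passed in control and 0.0261% in K27M, between genotypes 0% in either region, and none was a member. The Matn4 promoter was lower in brainstem among K27M cultures by a log2 difference of -0.22 ± 0.10 (SE, limma, adjusted p = 0.999) and differed by 0.05 ± 0.10 (SE, limma, adjusted p = 0.970) among controls. The test of the difference between these effects gave -0.28 ± 0.14 (SE, limma, adjusted p = 1.000), so no interaction of region and genotype was called, for Matn4 or for any promoter. For Neu4, over 12 libraries, that test gave -0.30 ± 0.15 (SE, limma, adjusted p = 0.999). The Lhfpl3 promoter was lower in brainstem by -0.25 ± 0.11 among controls (SE, limma, adjusted p = 0.958) and by -0.12 ± 0.10 among K27M cultures (SE, limma, adjusted p = 0.999). The body peak of Tnr at 64.4 kb was not called in all libraries, so it is not among the shared peaks tested below. Its fold was 3.64 to 4.39 in control brainstem and 2.37 to 2.62 in control telencephalon. Among K27M cultures it was 2.79 to 4.36 in brainstem and 3.17 to 4.09 in telencephalon. This peak was picked after its values were seen.

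The 33 shared peaks at the loci were tested among 13075 merged peaks found in all libraries. No peak at the loci passed by region, against 0.0229% of all, or by genotype, against 0%. Unadjusted p-values under 0.05 were found for 4 of 33 by region, against 6.39%, and for 3 of 33 by genotype, against 4.54%. By region the smallest was at Lhfpl3, 258 kb from the start in intron 1, where the fold was 2.46 to 3.42 (median 2.86) in brainstem and 2.51 to 3.55 (median 3.20) in telencephalon. The log2 difference was -0.18 ± 0.08 (SE, limma, adjusted p = 0.699). The Cspg5 upstream site in Smarcc1 differed by -0.14 ± 0.06 (SE, limma, adjusted p = 0.737), and the peak 63.1 kb from the Cspg4 start, at the promoter of Snx33, by -0.18 ± 0.08 (SE, limma, adjusted p = 0.730). The fourth was the Lhfpl3 promoter peak.

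By genotype the smallest unadjusted p was at Tnr, 218 kb from the start in intron 2. Its fold was 3.35, 2.72 and 3.97 in control brainstem cultures 51, 59 and 61 and 3.99, 4.30 and 3.45 in K27M brainstem cultures 41, 59 and 61. It was 2.84, 2.94 and 3.82 in control telencephalon cultures 51, 59 and 61 and 2.99, 4.49, 3.60 and 4.13 in K27M telencephalon cultures 41, 51, 59 and 61. The genotypes overlapped in both regions. The log2 difference of K27M from control was 0.28 ± 0.08 (SE), with a 95% interval from 0.12 to 0.44, and did not pass over all peaks (limma, adjusted p = 0.770). In the same gene the strongest site at 237 kb differed by -0.08 ± 0.08 (SE, limma, adjusted p = 0.999). The other peaks with an unadjusted p under 0.05 by genotype were at Tnr 70.8 kb, with a log2 difference of 0.21 (limma, adjusted p = 0.999), and at Lhfpl3 94.0 kb, with -0.19 (limma, adjusted p = 0.999). The intronic Cspg4 site at 3.3 kb differed by 0.03 ± 0.08 between regions (SE, limma, adjusted p = 0.979) and by 0.11 ± 0.09 between genotypes (SE, limma, adjusted p = 0.999).

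Whether a peak was called at all was compared as well. No merged peak of the loci was called in every library of one region or genotype and in none of the other. Peaks found in 5 to 8 libraries were tested by a two-sided Fisher's exact test, and 20 such peaks lay at the loci, with a smallest unadjusted p of 0.103 for region and for genotype. Of all 11706 peaks so tested, 2.36% had an unadjusted p under 0.05 by region and 1.26% by genotype, and 0% passed after adjustment. With peaks of 3 to 10 libraries included, 57 at the loci were tested, of which 1 had an unadjusted p under 0.05 by region, against 1.44% of 26619 peaks, and 0 by genotype, against 0.962%. That peak, 36.5 kb upstream of Gpr17 in an intron of Myo7b, was called in 4 of 6 brainstem and 0 of 7 telencephalon libraries (Fisher's exact test, p = 0.0210, adjusted p = 1) at a fold of 2.55 ± 0.22 (SD, n = 4), and in none at equal list length. No member promoter was found in 5 to 8 libraries, so none entered that test, in which 0% of 1815 promoters passed.

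Genes of the same pathways were counted in the same way. Of 16 other matrix and receptor genes, 4 had a promoter peak in all libraries, against 42% of protein-coding genes: Hapln1, Hapln2, Matn2 and Ptprs. None passed by region or genotype. Matn2, another matrilin gene, had the highest mean percentile of these, 85.5, with a log2 difference of 0.20 between regions (limma, adjusted p = 0.886), and Ptprs, a receptor for chondroitin sulfate, differed by 0.15 (limma, adjusted p = 0.941). Acan and Ncan, the other lectican genes, had promoter peaks in 7 and 12 libraries. The link protein gene Hapln4 was near the floor with 6 libraries and a mean percentile of 1.09 where called, as was Rtn4rl1, a Nogo receptor relative, with 3 libraries and 1.02.

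Promoter peaks were common among the genes of enzymes that build chondroitin sulfate. Of 22 genes, 20 had a promoter peak in all libraries, set against the 42% of protein-coding genes given above. Of the 10 members 6 did, and 9 when the short list of control telencephalon culture 59 was left out. The count without that list is not given for the enzymes. The highest were Dsel and Dse, epimerases of dermatan sulfate, and the synthase Chsy3, at mean percentiles of 98.0, 91.5 and 95.1, and the sulfotransferase gene Chst13 had no promoter peak in any library. None passed by region or genotype, with medians of -0.02 and 0.03 on the log2 scale. Of 11 relatives of the members, Ptprg, Neu1 and Lhfpl2 had a promoter peak in all libraries, and Lhfpl1, Cysltr1 and Cysltr2 in none. Among protein-coding genes 42% had such a peak throughout and 30.6% in no library. Among the members, the median of the mean percentiles of the 6 complete promoters was 58.8, against 66.3 for the 20 enzymes, 35.5 for the 5 OPC markers and 75.7 for all 9211 protein-coding genes with a promoter peak throughout.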

How the data were processed

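ATAC-seq libraries of 13 OPC cultures were analysed from the deposited peak lists, 1 per library. The authors ran an nf-core ATAC-seq pipeline with BWA 0.7.17-r1188 on mm10, removed blacklisted regions and used MACS2 2.2.7.1 to call broad peaks separately in each library, with a broad peak cutoff that the study's methods state for its ChIP-seq but not for its ATAC-seq lists. The deposited lists give the fold over local background (a ratio), the −log10 of the p-value and the −log10 of the q-value, each as a peak average, and a deposited score that, in 99.99% of peaks, equals 10 times the −log10 q without its decimals. The median width of the promoter peaks ran from 443 bp at Cspg4 to 3394 bp at Vcan. Peak width was not allowed for where folds of different genes are set side by side. The smallest −log10 q was 1.00. No read count is given, so depth and counting error are unknown, and the number of libraries limits the precision.

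Genes and starts were those of GENCODE M21, and 0 peaks lay beyond the ends of the reference chromosomes. Overlapping peaks (1 bp) were merged into 99746 regions. A gene's promoter value was its strongest peak in any start window, where an overlap of 1 bp sufficed. Log2 fold was centred on each library's median and fitted with limma 3.58.1 in R 4.3.3, trend on, with group and culture number, and Benjamini-Hochberg adjustment ran over all features. Detection was tested with Fisher's exact test in scipy 1.17.1. Both were also run on simulated data, with outcomes not given here. The simulated data for limma held no effect of culture or list length and no missing calls. Culture number was a block because the study assayed matched cultures together. Over 16 pairs with the same number in different groups the correlation of deviations from the group means was 0.08 on average, and -0.03 over 47 other pairs. Nothing states that cultures of a number share animals across genotypes. The limma p-values rest on the spread left after group and culture number, with variances drawn towards a trend over all features. They speak for these cultures only.

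For each gene the strongest promoter, body and flank peak by mean percentile was named, together with any locus peak that passed a test or had the smallest unadjusted p. Naming of any other peak followed inspection of its values. The genes, lists and tests were chosen with earlier results of these data known. Alternatives were no replicate block, no centring, percentiles, equal list length, p at most 1e-10, another window (500 bp) or overlap (200 bp, or most of a merged peak), features in at least 10 libraries and leaving out each library.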

Additional observations from a re-analysis of the deposited data

Results flagged for a closer look

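Within the K27M telencephalon group of 4 cultures, culture 51 stood apart at 2 of the 26 promoter and locus peaks examined for a single outlying library. At the Neu4 flank peak, 14.9 kb from the start, its fold was 4.79 against 3.88, 3.96 and 3.89 in cultures 41, 59 and 61. At the Cspg5 upstream site in Smarcc1, its fold was 5.43 against 4.49, 4.62 and 4.49. Chance alone flags about 1 in 20 groups of this size. The list of culture 51 held 52164 peaks, the longest of its group, and its median fold over promoters shared by all libraries was 4.01, against 3.37 to 3.43 in the other cultures of the group. The part of list length in these values was not tested.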

How the results depend on the processing

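Region and genotype differences of the 6 member promoters passed the threshold under no alternative (238 values, smallest limma adjusted p = 0.658), nor did those of the 6 locus peaks outside promoters of the genes with an unadjusted p under 0.05 (102 values chosen after the data were seen, smallest limma adjusted p = 0.347), and none of the latter changed sign. For region, the sign of the promoter difference turned without centring for Vcan (0.057), Ptprz1 (0.012), Tnr (0.050) and Gpr17 (0.075). For Gpr17 it also turned as percentiles (4.34 points), at p of 1e-10 (0.014) and with genes of at least 10 libraries (0.0054), and without the replicate block (0.0032). For genotype, it turned for Ptprz1 at equal list length (-1.1e-04) and for Tnr without the replicate block (0.0045). Leaving out 1 library moved the region difference from -0.075 to 0.034 for Vcan, from -0.074 to 0.037 for Tnr and from -0.084 to 0.049 for Gpr17, and the genotype difference from -0.041 to 0.078 for Vcan, from -0.040 to 0.098 for Ptprz1, from -0.13 to 0.0014 for Tnr, from -0.0021 to 0.098 for Matn4 and from -0.048 to 0.12 for Gpr17. The cause of these turns was not tested.

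The calls over all features were few throughout. Between regions, 2 promoters passed with the replicate block and 4 without it, 0 without centring, as percentiles or at p of 1e-10, 1 in the 500 bp window, and 2 to 4 with 1 library left out (4 without control telencephalon culture 59). Between regions in K27M the count of 3 became 2 without the block, 1 without centring, 0 as percentiles or at p of 1e-10, and 0 to 3 with 1 library left out (0 without K27M brainstem culture 41 or 59 or K27M telencephalon culture 41, 59 or 61). For genotype it was 0, and 0 to 2 with 1 library left out (2 without K27M brainstem culture 61). In brainstem it was 1 without centring. Of merged peaks, 3 passed between regions, 2 without the block, 0 without centring, as percentiles, at p of 1e-10 or at the larger overlap, 1 at equal list length or with peaks of 10 libraries, and 0 to 7 with 1 library left out (7 without K27M telencephalon culture 59, 0 without control culture 61 of either region, K27M brainstem culture 59, control telencephalon culture 59 or K27M telencephalon culture 41). The peak counts of 0 rose to 1 between regions in K27M at equal list length (0 to 1 with 1 library left out), to 1 for genotype in brainstem at p of 1e-10 (0 to 1), and to at most 2 for genotype (0 to 2). Detection gave 0 calls under every alternative, with pairing by replicate block included. Member promoters with a peak in all libraries numbered 6, 1 at p of 1e-10 and 9 without control telencephalon culture 59. Those with a peak in none numbered 0, 1 at equal list length and 2 at p of 1e-10. Shares over all genes are not given for these alternatives.

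Peak lists without read counts limit these values. A site below the calling cutoff has no value, only features called in all libraries were fitted, and list length ran from 16879 to 52466 peaks.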
